A study of Mus musculus with 16 samples.

Results

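Fibronectin, SPARC, laminin chains, netrin-4 and hemicentin-1 are secreted proteins of the extracellular matrix, and the 7 genes described here are Fn1, Sparc, Lama2, Lama4, Lamc1, Ntn4 and Hmcn1. They were taken by gene symbol from the table of gene expression values, where each symbol had 1 of the 5921 rows used. RNA was sequenced from dissected ventricles of mouse embryos at E11.5, with 4 biological replicates in each of 4 groups. The exon 2-3 line carries an Atf4 allele, Atf4 fl(e2/3), in which exons 2 and 3 are flanked by loxP sites, and the exon 2 line carries Atf4 fl(e2), in which exon 2 alone is flanked. In each line a conditional knockout (cKO), made with the Xmlc2-Cre transgene, was compared with its own controls, to ask what the transcription factor ATF4 does in the developing heart. All 4 groups share the age, the tissue and a genotype label, C57BL/6 WT, which stands on cKO and control samples alike, and none was treated. The sources used here do not say if the controls carried Cre or a floxed Atf4. Xmlc2-Cre acts in cardiomyocytes, so the other cells of the ventricle are not targeted, and the libraries hold RNA of all of them. In such bulk samples, fewer cells of a type and less RNA per cell cannot be told apart. The exon 2-3 line is batch 1 and the exon 2 line is batch 2 in the labels, which means that a line cannot be told apart from its batch.

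The extracellular matrix of the embryonic heart lies between endocardium and myocardium and beneath the epicardium, and it carries cells that migrate into the cushions. Laminins are heterotrimers of an alpha, a beta and a gamma chain that polymerise into the sheet of the basement membrane. Lama2 and Lama4 encode alpha chains, and Lamc1 encodes the gamma chain found in most laminins. Fibronectin is a secreted dimer that cells assemble into fibrils through integrin receptors. SPARC is a collagen-binding glycoprotein that modulates contact between cells and matrix. Netrin-4 is related to the laminin chains and binds laminin, and hemicentin-1 is a very large protein of the immunoglobulin superfamily found at basement membranes and cell junctions.

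The genes lie on 3 chromosomes (coordinates on GRCm38). Fn1 (71585473 to 71653280), Hmcn1 (150562500 to 150993652) and Lamc1 (153218922 to 153332786) are on the minus strand of chromosome 1. Lama2 (26981285 to 27617191, minus strand), Lama4 (38965515 to 39110188, plus strand) and Ntn4 (93641049 to 93745972, plus strand) are on chromosome 10, and Sparc (55394159 to 55420080, minus strand) is on chromosome 11. They differ widely in size. Sparc spans 25.9 kb and Lama2 636 kb, and the longest coding transcript in GENCODE M21 has 10 exons for Sparc and for Ntn4, 46 for Fn1, 65 for Lama2 and 107 for Hmcn1. Sparc and Lama4 overlap no other annotated gene in the table or in GENCODE M21. The other 5 overlap genes on the opposite strand, and Lama2 and Lamc1 also a gene of their own strand. The libraries are described as stranded, but no source used here says if reads were counted by strand, so these 5 values are uncertain to that extent. The opposite-strand rows present in the table, which lie within Lama2, Lamc1 and Ntn4, did not exceed 0.899 TPM in any library. That highest value belongs to Gm15915, which overlaps Ntn4, the gene with the lowest level of the 7.

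Promoter windows were available from RefSeq on GRCm38.p6 for 4 of the 7 genes, Sparc, Lama2, Ntn4 and Hmcn1. The 250 bases before the start site were searched on both strands for the TATA box (TATAAA), the GC box (GGGCGG), the CCAAT box (CCAAT), the AP-1 site (TGANTCA), the core of the C/EBP-ATF element to which ATF4 binds (TGATGNAA) and the E-box (CACGTG). The window of Ntn4 (chr10:93640799-93641048, plus strand) is shown because it starts at the edge of the gene's row, holds no annotated exon, and was the one of the 4 with GC boxes. It is written 5′ to 3′ in lower case, with the GC box letters of either strand in capitals, and the last pair of GC boxes overlap each other.
Ntn4: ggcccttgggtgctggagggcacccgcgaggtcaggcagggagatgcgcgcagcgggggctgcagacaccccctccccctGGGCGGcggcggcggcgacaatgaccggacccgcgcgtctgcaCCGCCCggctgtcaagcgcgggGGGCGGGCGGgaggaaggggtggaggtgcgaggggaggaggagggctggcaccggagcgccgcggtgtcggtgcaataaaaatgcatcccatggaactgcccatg
It held 4 GC boxes and 26 CpG dinucleotides, with a GC content of 73.2%. The Hmcn1 window held 2 CCAAT boxes, and the Sparc and Lama2 windows held none of the letters searched. The start sites used for Lama2 and Hmcn1 lay 249 and 217 bases inside the gene's row, so these windows fall largely within the row. The Sparc window overlaps annotated Sparc exons. For these 3 genes the windows may therefore not be the sequence before the first start site. Across 32851 promoter windows of the same length, 32.7% held the GC box, 33.8% the CCAAT box and 3.45% the C/EBP-ATF core. None of the 4 windows held that core. These matches describe letters only.

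The levels of the 7 genes covered more than 2 orders of magnitude on the TPM scale, which is corrected for transcript length. In the exon 2-3 controls the mean levels ran from Sparc at 708 ± 64.0 TPM (SD, n = 4) and Fn1 at 366 ± 26.5 TPM, through Lamc1 at 137 ± 8.60 and Lama4 at 127 ± 8.99 TPM, down to Hmcn1 at 11.8 ± 0.849, Lama2 at 2.55 ± 0.251 and Ntn4 at 1.29 ± 0.522 TPM. This order of means was the same in all 4 groups. Neighbours in the order had separate libraries with 3 exceptions. Lamc1 and Lama4 overlapped in the exon 2-3 controls, Lama2 and Ntn4 in the exon 2 controls, and Sparc and Fn1 in the exon 2 cKO. All 7 genes had a mean of at least 1 TPM over the 16 libraries, the limit for testing, as had 2620 genes in all. The tissue label was matched by high cardiac transcripts, since the 6 cardiomyocyte markers on the rows used (Tnnt2, Tnni1, Myl4, Myl7, Pln and Hand1) summed to between 12510 and 18467 TPM in every library. The neuronal markers Syt1 and Map2 together reached at most 2.11 TPM, a check made because one text of the labels names cortical neurons.

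**Figure D1:**
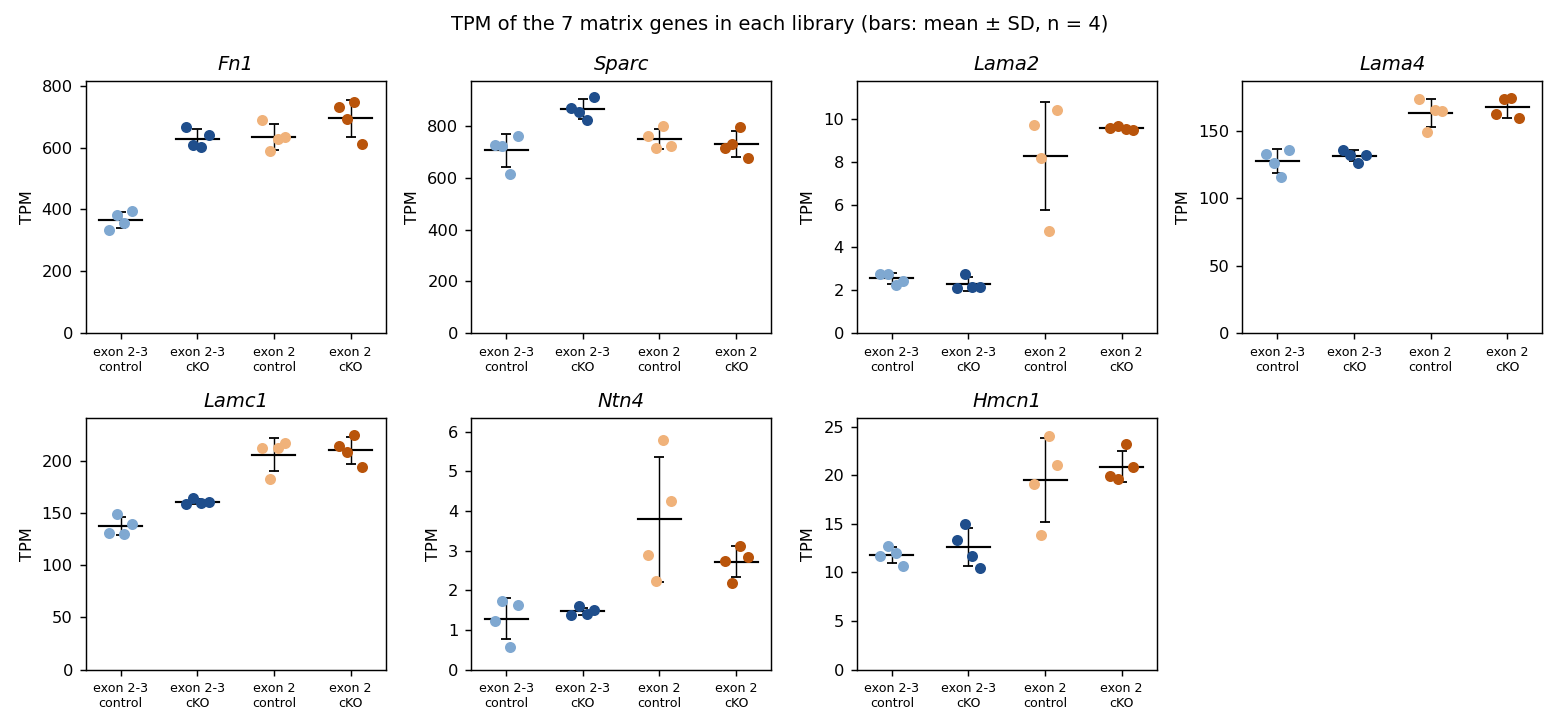
TPM (vertical axes, each from 0) of the 7 genes in the 16 libraries, with the 4 groups side by side. Points are libraries and bars the mean and SD of 4. The exon 2-3 controls lie apart from the other groups for Fn1, at 334 to 393 TPM, while Lama2, Lama4 and Ntn4 separate the lines and not cKO from control.

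In the exon 2-3 line, Fn1 rose most of the 7 genes, and Sparc and Lamc1 rose by less. The remaining 4 genes overlapped between cKO and control. With limma's moderated test on log2(TPM + 1), 3 of the 7 genes passed an adjusted p of 0.05, all higher in the cKO. Over all 2620 genes tested, 6.72% passed in either direction, 4.16% as higher and 2.56% as lower. The same 3 genes had no overlap between the 4 cKO and the 4 control libraries, a separation seen upwards in 9.24% and downwards in 5.31% of all genes tested. The median difference of the 7 genes was 0.14 on the log2 scale, and that of all genes tested was 0.032. Of all genes called in this line 61.9% were higher, a share that was 41.4% after centring each library on its median and 50.5% after quantile normalisation.

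Fn1, which encodes fibronectin, measured 334, 381, 355 and 393 TPM in the exon 2-3 controls (replicates 1 to 4) and 666, 609, 601 and 640 TPM in the cKO. The lowest cKO library thus lay well above the highest control. The mean rose 1.72-fold, with a log2 difference of 0.78 (SE 0.062, limma adjusted p 0.000107). Leaving out any 1 of the 8 libraries kept the call, with log2 differences between 0.74 and 0.82.

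Sparc measured 728, 726, 615 and 762 TPM in the controls and 872, 857, 823 and 914 TPM in the cKO of this line. Control replicate 3 was the lowest library and the groups did not overlap. The mean rose 1.22-fold (log2 difference 0.30, SE 0.070, limma adjusted p 0.0361). The call was lost in 6 of the 8 fits that left out 1 library, all but those without control replicates 3 and 4, with adjusted p-values up to 0.0928, without a filter on low values (0.120) and without an intensity trend (0.0645).

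Lamc1, the laminin gamma chain, measured 131, 149, 130 and 139 TPM in the controls and 159, 165, 159 and 161 TPM in the cKO. The cKO libraries lay within a narrow band above every control. The mean rose 1.17-fold (log2 difference 0.23, SE 0.052, limma adjusted p 0.0325). The call was lost in 5 of the 8 fits that left out 1 library, those without control replicate 1 or any one cKO replicate, with adjusted p-values up to 0.0996, without a filter on low values (0.0674) and without an intensity trend (0.0672).

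The alpha chain genes did not pass with the gamma chain. Lama4 measured 133, 126, 115 and 135 TPM in the controls and 136, 132, 126 and 132 TPM in the cKO (log2 difference 0.047, SE 0.058, limma adjusted p 0.692). Lama2 measured 2.74, 2.77, 2.25 and 2.43 TPM in the controls and 2.09, 2.76, 2.13 and 2.13 TPM in the cKO (log2 difference -0.12, SE 0.11, limma adjusted p 0.572). In both the groups overlapped, and Lama2 was the one member of the 7 with a negative difference in this line. Ntn4 measured 1.22, 1.72, 0.580 and 1.64 TPM in the controls and 1.39, 1.60, 1.40 and 1.49 TPM in the cKO. Control replicate 3 was the lowest control here too, as for Sparc, Lamc1, Lama4 and Lama2. Without it the Ntn4 difference of 0.14 (SE 0.17, limma adjusted p 0.689) became -0.029. The rows used held 15.2% of the TPM of that library, against 16.2% to 16.5% in the other exon 2-3 controls. Hmcn1 measured 11.7, 12.7, 12.0 and 10.7 TPM in the controls and 13.3, 14.9, 11.7 and 10.4 TPM in the cKO (log2 difference 0.077, SE 0.11, limma adjusted p 0.732), with both extremes of the line in cKO libraries.

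In the exon 2 line, none of the 7 genes passed the test or separated cKO from control. Over all genes tested 2 passed (0.0763%, both higher), 0.687% lay higher and 1.15% lower with no overlap, and 84 had an unadjusted p under 0.05, none of these 7 among them. Fn1 measured 691, 588, 628 and 634 TPM in the controls and 730, 692, 747 and 611 TPM in the cKO. The lowest value in the cKO lay among the controls, and the log2 difference was 0.13 (SE 0.076, limma adjusted p 0.999). Sparc measured 761, 718, 800 and 724 TPM in the controls and 716, 732, 797 and 678 TPM in the cKO (log2 difference -0.040, SE 0.065). Lamc1 measured 212, 182, 212 and 217 TPM in the controls and 214, 208, 225 and 194 TPM in the cKO (log2 difference 0.031, SE 0.069). For the latter gene a single control library was low.

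Lama4 in this line measured 174, 149, 165 and 164 TPM in the controls and 162, 174, 174 and 159 TPM in the cKO (log2 difference 0.035, SE 0.059). Lama2 measured 9.70, 8.18, 4.75 and 10.4 TPM in the controls and 9.59, 9.66, 9.55 and 9.48 TPM in the cKO (log2 difference 0.24, SE 0.18). Its 4 cKO libraries were nearly equal, while control replicate 3 lay far below the other controls. The same control replicate had the highest Ntn4 and Hmcn1 of its group. Ntn4 measured 2.90, 2.24, 5.79 and 4.24 TPM in the controls and 2.75, 2.18, 3.11 and 2.83 TPM in the cKO (log2 difference -0.31, SE 0.21). Hmcn1 measured 19.0, 13.9, 24.0 and 21.1 TPM in the controls and 19.9, 19.6, 23.2 and 20.9 TPM in the cKO (log2 difference 0.12, SE 0.14). The summed level of the 8 mesenchymal, cushion and fibroblast markers on the rows used was also highest in control replicate 3, at 648 TPM against 453 to 502 TPM in the other exon 2 controls. The part of these cells in the values of that library was not tested.

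**Figure D2:**
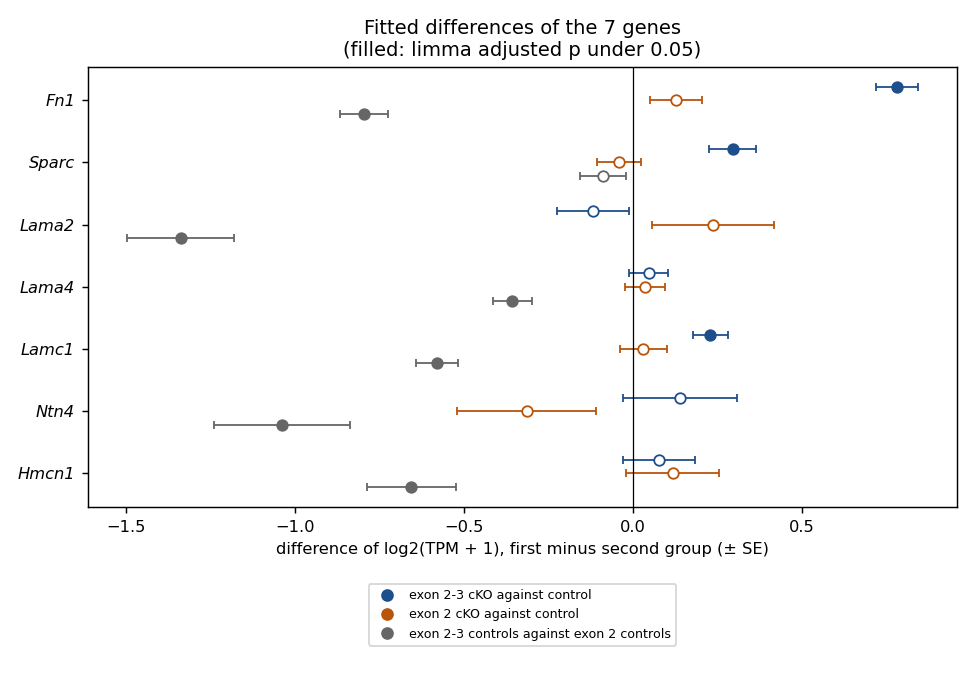
Fitted difference of log2(TPM + 1) with its SE (horizontal axis) for the 7 genes (rows) in 3 comparisons. Filled points have a limma adjusted p under 0.05. Fn1, Sparc and Lamc1 are filled for the exon 2-3 cKO, none is for the exon 2 cKO, and every gene except Sparc is filled, and negative, for the exon 2-3 controls against the exon 2 controls.

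The interaction term, the exon 2-3 effect minus the exon 2 effect, tested whether the lines responded differently to the knockout. It passed for 1 of the 7 genes, Fn1 (0.65, SE 0.10, limma adjusted p 0.00131), with a positive sign, where 2.37% of all genes tested passed, 1.6% with a positive and 0.763% with a negative sign. Leaving out any 1 of the 16 libraries kept that call. Of all calls for this term 67.7% were positive, and 52.0% after median centring. The term was 0.34 for Sparc (SE 0.097, adjusted p 0.0883) and 0.20 for Lamc1 (SE 0.087, adjusted p 0.289). The term for Sparc passed in 4 of 9 other settings, among them median centring (0.28, adjusted p 0.0128) and rescaling without hemoglobin genes (adjusted p 0.0321). It did not pass in the other 5, among them quantile normalisation (0.25, adjusted p 0.185) and no filter (adjusted p 0.178). With 1 library left out it passed in 1 of 16 fits, that without exon 2 cKO replicate 3 (adjusted p 0.0484). For Lamc1 a difference between the lines was not shown. Ntn4 (0.45, SE 0.28), Lama2 (-0.36, SE 0.22), Hmcn1 (-0.040, SE 0.19) and Lama4 (0.012, SE 0.082) had adjusted p-values of 0.511 or above, and the sign for Lama4 turned under 4 other scalings.

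The control groups differed from each other more than cKO from control for most of the 7 genes. Of the 7 genes, 6 were lower in the exon 2-3 controls than in the exon 2 controls at an adjusted p under 0.05, and the libraries did not overlap for the same 6. Such differences were common, as 52.6% of all genes tested passed, 38.1% as lower and 14.4% as higher, and 32.6% were lower and 12.9% higher with no overlap. All genes tested had a median difference of -0.14 here, which median centring moved to 0.041, so the differences are read against that shift. Higher genes made up 27.5% of the calls as deposited and 57.7% after that centring, and the same 6 genes were still called lower. Cell type markers differed between the controls as well. Of the 8 mesenchymal, cushion and fibroblast markers on the rows used, 7 were called lower in the exon 2-3 controls and 1 higher, with a median difference of -0.96 and sums of 295 to 340 against 453 to 648 TPM. Of the 6 cardiomyocyte markers 4 were called higher, with sums of 16997 to 18467 against 12510 to 14606 TPM. The part of these cell types in the differences of the 7 genes was not tested.

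Among the 7 genes Lama2 differed most, with 2.55 ± 0.251 TPM in the controls of the exon 2-3 line and 8.26 ± 2.52 TPM in those of the exon 2 line (SD, n = 4 each; log2 difference -1.34, SE 0.16, limma adjusted p 4.67e-06). Both groups of the exon 2-3 line had 2.09 to 2.77 TPM of Lama2, below the 4.75 TPM of the lowest library of the exon 2 line. Ntn4 stood at 1.29 ± 0.522 against 3.79 ± 1.57 TPM (-1.04, SE 0.20, limma adjusted p 0.000484), a difference that was -1.49 with a pseudocount of 0.1. Hmcn1 stood at 11.8 ± 0.849 against 19.5 ± 4.27 TPM (-0.66, SE 0.13). Lamc1 stood at 137 ± 8.60 against 206 ± 15.9 TPM (-0.58, SE 0.061) and Lama4 at 127 ± 8.99 against 163 ± 10.2 TPM (-0.36, SE 0.058). The difference of Lama4 was -0.18 after median centring, and still called. Sparc did not pass (708 ± 64.0 against 750 ± 37.8 TPM, -0.088, SE 0.069, limma adjusted p 0.302), and its sign turned after median centring (0.093).

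The controls of the exon 2-3 line had 366 ± 26.5 TPM of Fn1, and those of the exon 2 line 635 ± 42.4 TPM (-0.80, SE 0.071, limma adjusted p 2.04e-07). The exon 2-3 cKO, at 629 ± 29.7 TPM, overlapped both groups of the exon 2 line, so the exon 2-3 controls alone stood apart. Lamc1 differed in this respect. Its level in the exon 2-3 cKO, 161 ± 2.67 TPM, stayed below all libraries of the exon 2 line. Sparc was higher in the exon 2-3 cKO, at 867 ± 37.5 TPM, than in every library of the exon 2 line. Since each line is its own batch, none of these comparisons across lines separates line from batch.

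Ratios between genes within a library do not depend on how the library was scaled, and they are given as a description with no test. The ratio of Fn1 to Sparc was 0.459 to 0.577 in the exon 2-3 controls and 0.701 to 0.763 in the cKO, with no overlap, so that fibronectin rose more than SPARC. The exon 2 line had 0.785 to 0.908 in controls and 0.901 to 1.02 in the cKO, which overlap. The ratio of Fn1 to Lamc1 was 2.66 ± 0.135 in the exon 2-3 controls, 3.91 ± 0.222 in the cKO, 3.09 ± 0.171 in the exon 2 controls and 3.30 ± 0.110 in the exon 2 cKO (SD, n = 4 each). This ratio was thus highest in the exon 2-3 cKO and lowest in its controls. Among the laminin chains, Lama4 to Lamc1 was 0.846 to 1.01 in the exon 2-3 controls and 0.790 to 0.853 in the cKO, with an overlap. Lama2 to Lamc1 was 0.0173 to 0.0209 in the exon 2-3 controls and 0.0131 to 0.0167 in the cKO, with no overlap. The exon 2 line had 0.0424 to 0.0489 in the cKO and 0.0224 to 0.0480 in the controls. Lama4 was therefore the predominant alpha chain transcript of the 2 in every library, with 50.2 ± 4.33 times the level of Lama2 in the exon 2-3 controls and 21.7 ± 8.83 times in the exon 2 controls. The beta chains that pair with these subunits were not analysed here, apart from Lamb3.

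**Figure D3:**
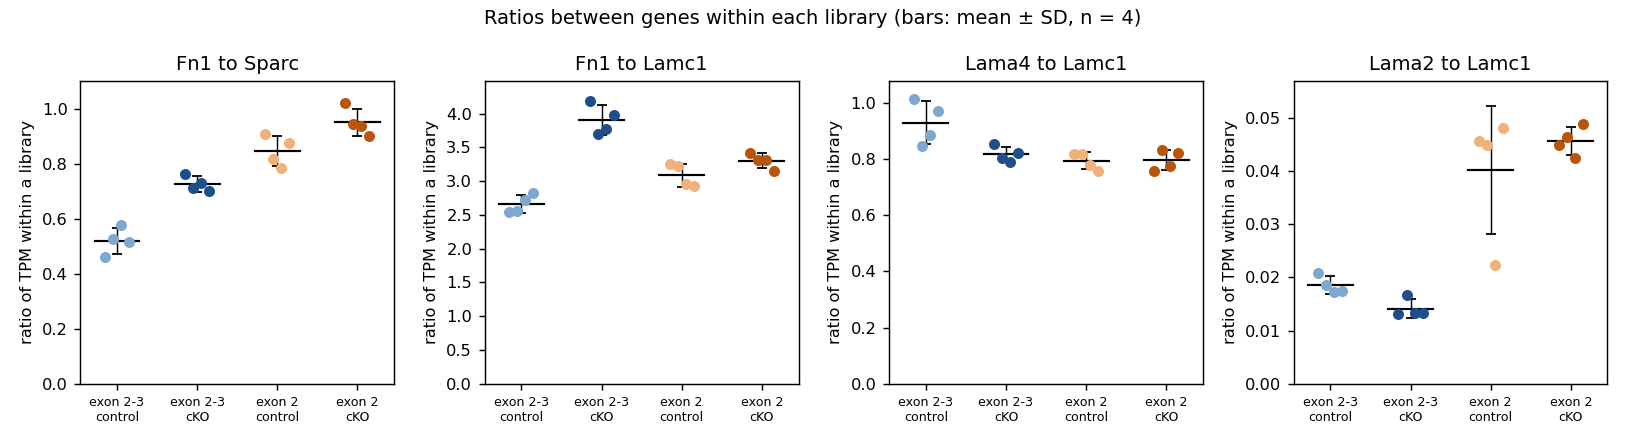
Ratios of TPM between pairs of the genes within each library (vertical axes, each from 0), by group. Points are libraries and bars the mean and SD of 4. Fn1 to Sparc and Fn1 to Lamc1 separate the exon 2-3 cKO from its controls with higher values in the cKO, and Lama2 to Lamc1 with lower values. Lama2 to Lamc1 is also higher in every exon 2 library than in any exon 2-3 library, with exon 2 control replicate 3, at 0.0224, nearest to the latter.

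Other genes of the matrix were read from 4 lists, of laminin chains, of laminin and fibronectin receptors, of basement membrane and other matrix glycoproteins, and of matrix proteases, inhibitors and processing enzymes. Beside the 7 genes, 26 of their genes were tested. In the exon 2-3 line 5 of the 26 passed, all higher in the cKO, where 4.16% of all genes tested passed as higher. Of the 26, 23 had a positive difference, as had 58.5% of all genes tested, and their median was 0.26 against 0.032 for all genes. None of the 26 passed in the exon 2 line, where 0.0763% of all genes did. A positive difference was found there for 7 of the 26 and for 43.2% of all genes, with medians of -0.034 and -0.012. The interaction term passed for 2 of the 26, both positive, as for 1.6% of all genes with that sign. Between the control groups 19 of the 26 were called lower in the exon 2-3 controls and none higher, where 38.1% and 14.4% of all genes were.

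The genes called in the exon 2-3 line came from 3 of the lists. Of 7 receptors tested, Itga3 and Sgca passed. Itga3, the alpha subunit of a laminin-binding integrin, rose from 12.9 ± 0.688 to 16.8 ± 0.672 TPM (log2 difference 0.35, SE 0.065, limma adjusted p 0.0138), and its call held in all 8 fits that left out 1 library. Sgca, a sarcoglycan of the dystrophin complex that links muscle cells to laminin, rose from 24.0 ± 3.09 to 32.2 ± 2.46 TPM (0.41, SE 0.093, limma adjusted p 0.0311), and lost its call in 6 of those fits (adjusted p up to 0.0841) and without a filter on low values (0.110).

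Of 5 basement membrane and other matrix glycoproteins tested, Col18a1 and Efemp1 passed. Col18a1, a basement membrane collagen and the precursor of endostatin, measured 173, 199, 172 and 222 TPM in the exon 2-3 controls and 275, 256, 283 and 280 TPM in the cKO (0.52, SE 0.081, limma adjusted p 0.00685), a rise that held in the 8 fits. Its cKO libraries lay close together and above every control. For the difference between the lines Col18a1 had 0.42 (SE 0.10, limma adjusted p 0.0395). This call was lost in 13 of 16 fits with a library left out (adjusted p up to 0.0877). It was also lost in 2 of 9 other settings, among them no filter on low values (0.10). Efemp1, which encodes the matrix glycoprotein fibulin-3, rose from 10.5 ± 1.06 to 13.8 ± 1.14 TPM (0.37, SE 0.088, limma adjusted p 0.0359). Its call was lost in 7 of the 8 fits (adjusted p up to 0.0959), without a filter on low values (0.0920) and after quantile normalisation (0.0503).

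Of 12 proteases, inhibitors and processing enzymes tested, Serpine2 passed. Serpine2, a secreted inhibitor of thrombin and other serine proteases, measured 104, 113, 90.9 and 123 TPM in the exon 2-3 controls and 202, 187, 189 and 217 TPM in the cKO, a rise of 1.85-fold (0.88, SE 0.090, limma adjusted p 0.000490). In the exon 2 line it measured 127, 129, 131 and 122 TPM in the controls and 110, 126, 129 and 120 TPM in the cKO. The interaction term of Serpine2 reached 0.95 (SE 0.11, limma adjusted p 0.000101), and leaving out any 1 library kept both calls. The difference of Serpine2 was thus of the size of that of Fn1.

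Lamb3 encodes a laminin beta chain found in epithelia. It averaged 0.764 ± 0.0631 TPM in the exon 2-3 controls and 1.15 ± 0.0550 TPM in the cKO, with no overlap, but did not pass (0.29, SE 0.098, limma adjusted p 0.120). It entered the test through its levels in the other 3 groups, as the exon 2-3 controls lay under 1 TPM. It passed without an intensity trend (0.0206) and without a filter on low values (0.0406), and with a pseudocount of 0.1 its difference was 0.54 (adjusted p 0.127). In the exon 2 line its groups overlapped, with a difference of -0.076.

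**Figure D4:**
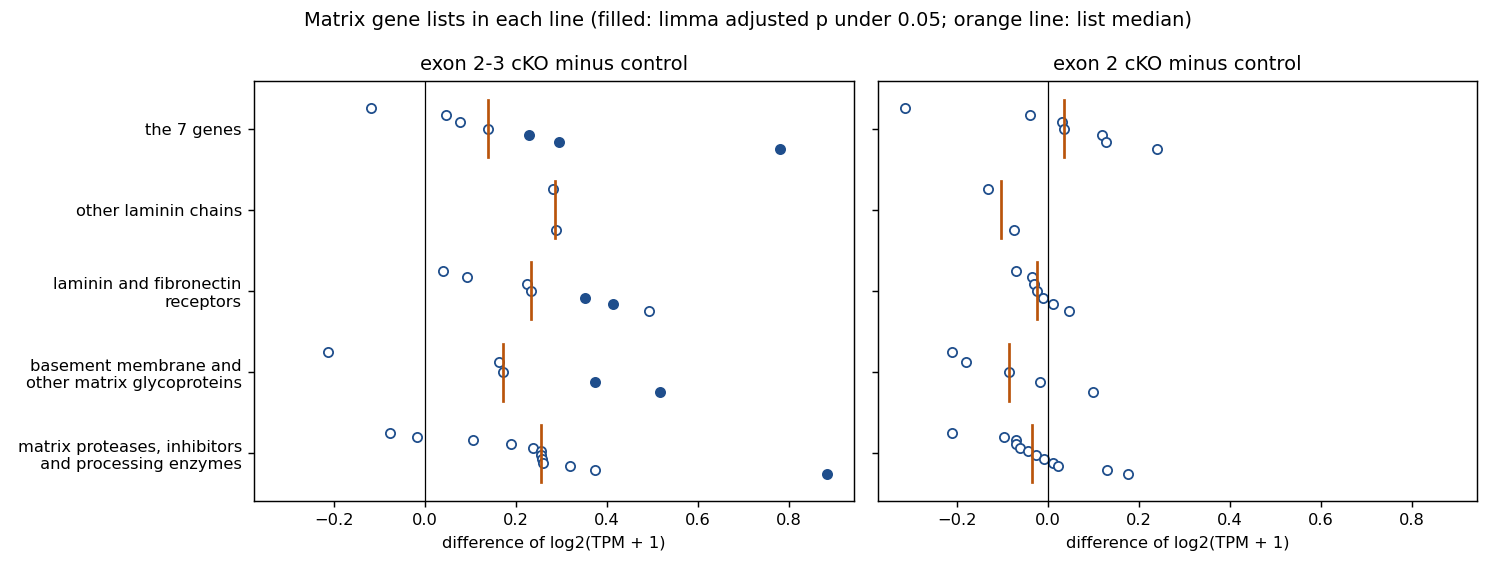
Difference of log2(TPM + 1) between cKO and control (horizontal axes) for the 7 genes and for the other genes of the 4 matrix lists (rows), in the exon 2-3 line (left) and the exon 2 line (right). Points are genes, filled where the limma adjusted p was under 0.05, and the orange lines are list medians. The filled points all lie in the exon 2-3 panel, with Serpine2 at 0.88 and Fn1 at 0.78 farthest from 0.

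Some markers of other cell types also passed the test in the exon 2-3 line. The 8 mesenchymal, cushion and fibroblast markers on the rows used (of 17 listed) summed to 295 to 340 TPM in the exon 2-3 controls and 437 to 479 TPM in the cKO. All 8 had a positive difference, as had 58.5% of all genes tested, and 4 passed, where 4.16% of all genes passed as higher. The 4 were Col1a1, Col3a1, Col5a2 and Dcn, which are named after their values were seen and are themselves matrix genes. The 2 epicardial markers on the rows used (of 12 listed), Tcf21 and Krt19, summed to 116 to 131 TPM in these controls and 168 to 191 TPM in the cKO, and both passed as higher. The 3 endothelial and endocardial markers (Cd34, Icam2 and Sox17) summed to 119 to 150 TPM in controls and 137 to 159 TPM in the cKO, with none called. Sums of the other 2 lists did not rise. The 2 smooth muscle markers (Myocd and Smtn) summed to 80.5 to 98.3 TPM in controls and 67.4 to 86.8 TPM in the cKO. The 4 myeloid markers (Ptprc, Cd68, Lyz2 and Fcer1g) summed to 85.8 to 87.8 and 74.7 to 87.5 TPM. None of the tested genes of these 2 lists was called. Of the 6 cardiomyocyte markers 1, Hand1, was called, as lower. In the exon 2 line no gene of these lists was called. The mesenchymal sum was 453 to 648 TPM in the exon 2 controls and 440 to 583 TPM in the exon 2 cKO, and the epicardial sum 108 to 125 and 99.5 to 121 TPM. The 4 erythroid markers, hemoglobin genes among them, varied widely within the exon 2-3 cKO, from 1512 TPM in replicate 3 to 11293 TPM in replicate 4. After rescaling without hemoglobin genes the differences of Fn1 (0.78), Sparc (0.29) and Lamc1 (0.22) in this line remained called. No listed marker on the rows used was at 0 in all libraries. The part of these cell types in the changes of the 7 genes was not tested.

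For each of the 7 genes the 2 tested genes with the most similar pattern were taken as those with the highest Pearson's r over the 16 libraries, on log2(TPM + 1) values from which each line's mean had been subtracted. Libraries of a line share their batch and the knockout effect is part of the pattern, and each pair was picked from all genes tested, so no p is given. Fn1 was most like Zfp365 (r = 0.972) and Phlda3 (r = 0.965), which rose in the exon 2-3 cKO with log2 differences of 1.65 and 1.13. Sparc was most like Adam11 (r = 0.956) and Fkbp10 (r = 0.949), with r of 0.743 and 0.814 after quantile normalisation. Lamc1 was most like Prrc2c (r = 0.974) and Lrp1 (r = 0.955). These pairs kept r of 0.880 or above without the 2 libraries farthest from the member's median. Lama4 was most like Natd1 (r = 0.909) and Med23 (r = 0.903), which fell to 0.615 and 0.654 after median centring. Ntn4 was most like Mfap4 (r = 0.850), an elastic fibre glycoprotein of the lists, and Septin8 (r = 0.845), and Hmcn1 like Rev3l (r = 0.867) and Sgcd (r = 0.855), a sarcoglycan of the lists. Without the 2 libraries farthest from the member's median, r was lower for these pairs. It was 0.804 (Natd1) and 0.718 (Med23) for Lama4, 0.750 (Mfap4) and 0.691 (Septin8) for Ntn4, and 0.691 (Rev3l) and 0.686 (Sgcd) for Hmcn1. Lama2 was most like Angel2 (r = 0.881) and Eif2d (r = 0.753), but without exon 2 control replicate 3 and exon 2-3 cKO replicate 1 these were 0.448 and 0.0149, so that the likeness rests on those libraries.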

How the data were processed

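The authors deposited 1 table of TPM values, which scale each library to a fixed total of transcripts, with 16 columns matched to samples by the column name in each sample's description. The program and annotation behind the TPM are not given in the sources used here. The submitters' processing notes name FastQC, Trim Galore 0.6.7, HISAT2 2.2.1, StringTie 2.2.1, featureCounts and DESeq2 without roles, and the build GRCm38. The table was held in part: 5921 rows of chromosomes 1, 10 and 11 (to position 106501211), 15.2% to 17.1% of each library's TPM, and an incomplete last line was left out. Atf4 itself was not analysed here, so directions rest on the labels. TPM keeps no depth, so read counts and counting intervals are unknown. Row coordinates equalled RefSeq GRCm38.p6 for 5919 rows.

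Values were analysed as log2(TPM + 1), on which scale differences understate those of low genes. The test covered the 2620 genes whose mean TPM reached 1, using limma 3.58.1 (R 4.3.3; eBayes with trend), two-sided, with Benjamini-Hochberg adjustment over all genes tested and a threshold of 0.05. The cKO effect was fitted line by line on 8 libraries, the interaction and the control comparison on all 16. The fits were tested on simulated data. The 7 genes and the gene lists were chosen with earlier results of these data known. Named beside the 7 are list genes called in a line or the interaction, other laminin chains, and the 2 most alike genes of each. One gene that this rule names is not reported here. Alternatives were a pseudocount of 0.1, no filter, a minimum mean TPM of 5, quantile normalisation, median centring, rescaling without hemoglobin genes, 1 fit over all libraries, a block for the replicate number, a fit without intensity trend and leaving out each library. A rescaling that also drops Gm10222 and Gm10925, 2 abundant rows, was added after seeing the data. Figures were drawn with matplotlib 3.10.9.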

Additional observations from a re-analysis of the deposited data

Results flagged for a closer look

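The interaction term passed for Fn1 (0.65 on the log2 scale), Serpine2 (0.95) and Col18a1 (0.42), each more positive in the exon 2-3 line. Over all genes tested 2.37% passed for this term. The calls of Fn1 and Serpine2 held in all 16 fits with a library left out, while that of Col18a1 was lost in 13 of 16. Within groups of 4, 2 single libraries lay far from the rest by Dixon's criterion: Lama2 in exon 2-3 cKO replicate 2, at 2.76 TPM against 2.09 to 2.13 TPM in the others, and Lamc1 in exon 2 control replicate 2, at 182 TPM against 212 to 217 TPM. With 56 sets of 4 libraries examined, chance flags about 1 in 20.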

How the results depend on the processing

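Of the 7 genes, 3 were called in the exon 2-3 line. The count was 1, Fn1, without a filter on low values (1) and without an intensity trend (1), and 1 to 3 with 1 library left out. For the difference between the lines the count was 1, and it was 2, with Sparc added, after median centring (2), rescaling without hemoglobin genes (2), the same without 2 abundant rows (2) and with the replicate block (2), and 1 to 2 with 1 library left out. The 0 calls of the exon 2 line held under every alternative run, and the 6 of the controls moved to 5 with a minimum of 5 TPM, which leaves Ntn4 untested, and to 7, with Sparc added (-0.13, adjusted p 0.0455), after rescaling without the 2 rows. Over all genes, the 176 calls of the exon 2-3 line became 87 without a filter, 343 after median centring, 311 after quantile normalisation and 269 and 282 after the rescalings. The 62 calls of the interaction became 41, 127, 133, 93 and 105 in that order, and the 2 calls of the exon 2 line became 4 in 1 fit over all libraries. Same-numbered cKO and control libraries correlated in their deviations at -0.029 to 0.21 in the exon 2-3 line, where 1 of 4 controls correlated best with its own number, and at 0.064 to 0.20 in the exon 2 line, where 3 of 4 did. Pairing was taken to need a correlation over 0.1 in every pair, which neither line met, and the labels give no shared source, so the samples were treated as unpaired. The replicate block left 3 calls in the exon 2-3 line (3) and 0 in the exon 2 line, and added Sparc to the interaction (0.34, adjusted p 0.034).

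Signs turned for small differences. Lama4 in the exon 2-3 line was -0.0013 after median centring, and its interaction term was -0.0091 after quantile normalisation, -0.041 after median centring, -0.0099 and -0.013 after the rescalings, and -0.034 to 0.054 with 1 library left out. Sparc between the controls was 0.093 after median centring. With 1 library left out, the exon 2-3 differences ran from -0.029 to 0.23 for Ntn4 and -0.0033 to 0.16 for Hmcn1. Those of the exon 2 line ran from -0.0067 to 0.066 for Lama4, -0.026 to 0.069 for Lamc1, -0.029 to 0.22 for Hmcn1, -0.037 to 0.053 for Itga3 and -0.067 to 0.015 for Sgca. The Hmcn1 interaction ran from -0.14 to 0.11. The cause of these turns was not tested. Differences of the 14 named genes in 4 comparisons were counted as the same if they kept direction and side of the threshold. The r of a most alike pair was counted as the same if it stayed within an interval around the main r. By these rules 1107 values were the same, 69 lost a call, 19 gained one, 24 changed sign and 5, all of them r values, moved. With depth unknown, the precision of the low genes Ntn4, Lama2 and Lamb3 cannot be set beyond their spread.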
